A study of Ovis aries with 6 samples.

Results

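The abundant assembled loci of the sheep oocyte are transcribed regions that StringTie assembled from the reads and numbered with the prefix MSTRG, and whose mean level over the 6 libraries was 50 CPM or more. CPM is a locus count divided by the library's total count and multiplied by 1000000, so it is a share of the library. Of 25609 features in the table, 6695 were assembled loci and 521 of these met the threshold. The other features were 18914 annotated Ensembl sheep genes, of which 2872 had a mean of 50 CPM or more.

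Oocytes of the strain given as Xinjiang Sheep were sequenced at 2 stages, with 3 libraries each. Germinal vesicle (GV) oocytes were taken without cumulus cells from follicles of 2 to 8 mm, and the labels give no culture for them. Metaphase II (MII) oocytes came from cumulus-oocyte complexes of the same follicle sizes that were stripped with hyaluronidase, held at 38.5 °C in 5% CO2 for 23 to 25 h and collected with a first polar body, so the stage cannot be told apart from the culture or from the type of oocyte taken. Each library was a pool of 30 to 35 oocytes. Whether the pools shared animals is not in the labels, and the p-values therefore cover only the variation among these pools.

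A fully grown oocyte is largely silent in transcription, and it completes meiosis on RNA stored during growth. During maturation some stored RNAs are deadenylated and degraded while others are kept or recruited for translation. Libraries depleted of ribosomal RNA also hold RNA without a long poly(A) tail, so assembly can find long non-coding RNAs, transcribed repeats, unannotated exons or 3′ ends, and protein-coding genes missing from the annotation. The table gives only a locus number, without position, sequence, length or strand, so no role can be given to any locus here, and none is called a non-coding RNA. CPM is not divided by length, so the order of loci by CPM is one of read share and not of molecules.

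Library totals ranged from 26984892 to 28117286 counts at GV and from 28578411 to 31962405 at MII. Scaling factors of the TMM method (trimmed mean of M-values) were 1.16 to 1.17 in GV and 0.769 to 0.910 in MII, so a log2 fold change from the fit lies above the ratio of the raw CPM values. None of the identifiers could be matched to a gene symbol (0), so 0 of 12 oocyte markers and 0 of 12 cumulus and granulosa markers could be read, and the label of the tissue was not checked. In such bulk pools, fewer cells of a type and less RNA per cell cannot be told apart, and cumulus RNA as a part of any result was not tested.

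The abundant loci were few but held most of the reads of their class. Of all counts they took 10.5%, 11.6% and 10.3% at GV and 9.71%, 7.90% and 9.67% at MII. The means were 10.8 ± 0.712% (SD, n = 3) in GV and 9.09 ± 1.03% (n = 3) in MII, a difference of −1.70 percentage points (MII minus GV). No MII library reached the lowest GV library. The exact permutation test (two-sided) gave p = 0.1, which is the smallest value possible with this number of libraries. MII library 2 had the lowest share, and without it the difference was −1.10 points. The 6174 assembled loci under 50 CPM took 5.47 ± 0.225% in GV and 3.29 ± 0.297% in MII (n = 3 each, exact permutation p = 0.1), a difference of −2.18 points from a smaller base.

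Within their own class the abundant loci therefore took a larger share in MII. Of assembled-locus counts they held 66.0%, 67.0% and 66.1% at GV and 72.8%, 72.0% and 75.3% at MII, a difference of 7.02 points (exact permutation p = 0.1). Taken over the counts of all assembled loci, the abundant loci other than MSTRG.14755 differed by 2.46 points. Those other than the 10 most abundant differed by −1.28 points on the same total. The omitted loci stayed in that total, so these values do not give the difference with them left out of both sides. That difference was not calculated.

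**Figure D1:**
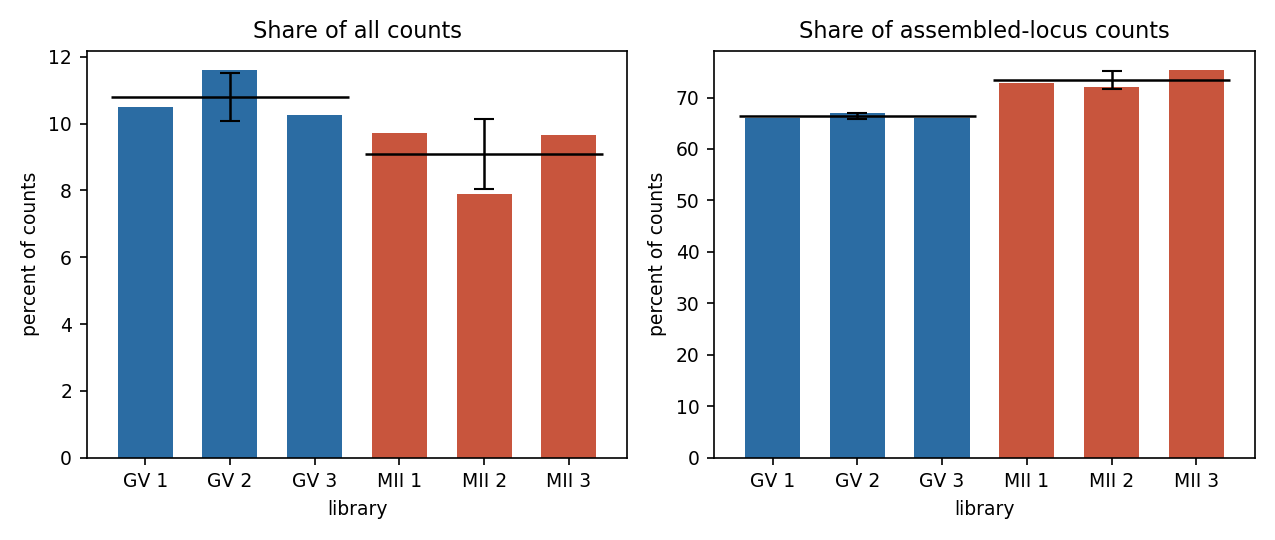
Counts of the 521 abundant assembled loci as a percent of all counts (left) and of the counts of all 6695 assembled loci (right), one bar per library, GV in blue and MII in red. Black lines are stage means with SD (n = 3). The MII libraries lie below the GV libraries on the left (9.09 against 10.8%) and above them on the right (72.0 to 75.3% against 66.0 to 67.0%).

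All 521 loci passed the low-count filter, and the lowest count of any of them in any library was 45. Only 112 had a mean of 200 CPM or more, 27 had 500 or more and 4 had 2000 or more. The mean was at least 50 CPM in both stages for 384 loci, in GV alone for 116 and in MII alone for 21. At the threshold, MSTRG.5450 stood just inside with a mean of 50.01 CPM (60.3, 64.4 and 59.5 in GV and 47.9, 37.6 and 30.3 in MII), and MSTRG.8305 just outside with 49.9 CPM. Among the 1000 features with the highest stage mean, 125 were abundant assembled loci in GV and 87 in MII, and 70 of them were in both lists.

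The stage comparison addresses how the level of each RNA within the RNA pool differs after maturation. Of the 521 loci, 145 (27.8%) rose and 139 (26.7%) fell (edgeR quasi-likelihood test, p adjusted by Benjamini-Hochberg over 19302 tested features and under 0.05), and 237 did not pass. Over all tested features 24.7% rose and 26.2% fell, so the loci were called about as often as any feature. Among the 2872 annotated genes of 50 CPM or more, 57.6% rose and 15.6% fell. The median log2 fold change was 0.05 for the abundant loci, 0.63 for those genes, −0.55 for the assembled loci under 50 CPM and −0.01 for all tested features. With scaling by total count alone the medians were −0.40, 0.18, −0.99 and −0.45 in the same order, and 66 loci (12.7%) rose and 227 (43.6%) fell, where all tested features gave 12.1% and 37.0%. Rising loci were 51.1% of the calls among the abundant loci with TMM scaling, 43.3% with upper-quartile scaling (120 higher and 157 lower, against 21.6% and 28.3% of all tested features) and 22.5% with total counts. The abundant loci thus lay close to the median of all features under both scalings. With a filter of 5 CPM their median was −0.16 against 0.03 for all features tested there, so the side on which they lay depends on the filter.

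With a call and at least a 4-fold change, 23 loci (4.41%) were lower and 3 (0.576%) higher in MII, against 6.59% and 1.24% of all tested features, so falls of this size outnumbered rises among the loci and among all features. A locus can meet the threshold through the stage where it is high, as 116 did through the GV mean alone and 21 through the MII mean alone, so these counts are a description. With at least 2-fold, 83 (15.9%) were lower and 64 (12.3%) higher, against 21.2% and 14.6%. Stages without overlap on TMM-scaled CPM were found for 309 loci (59.3%), against 60.3% of all tested features. Some of these loci overlap in raw CPM, such as MSTRG.14756 (1081.7 in GV library 2 and 1005.2 in MII library 2). MII was the higher stage for 157 of the 309 loci and the lower for 152, against 29.2% and 31.0% of all tested features.

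**Figure D2:**
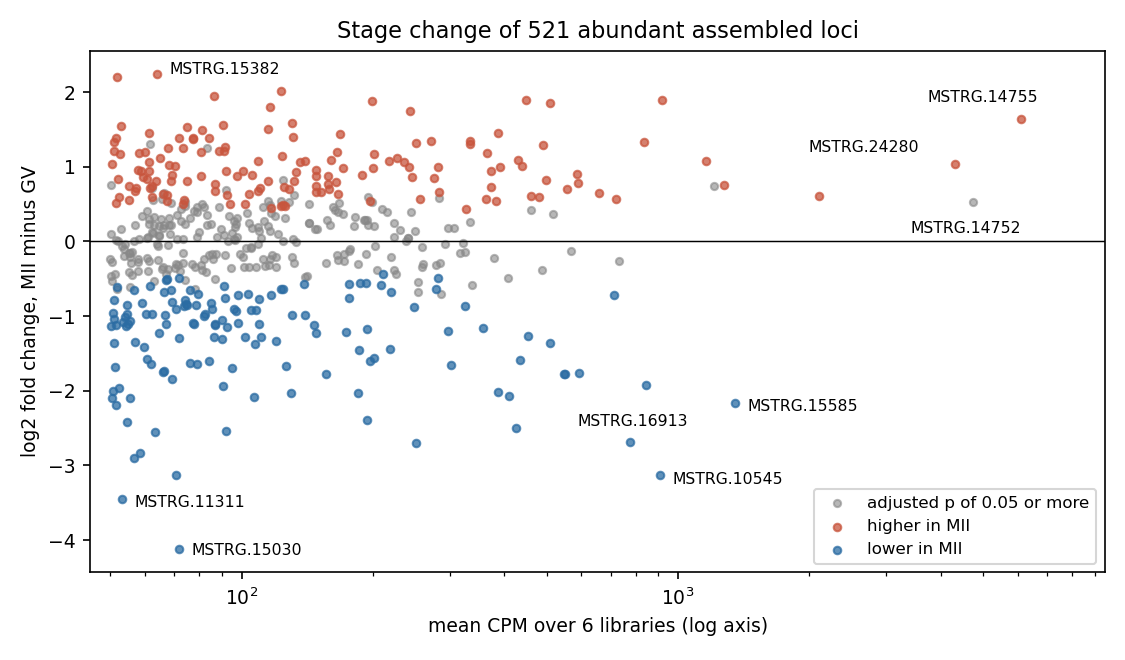
Log2 fold change (MII minus GV, TMM-scaled edgeR fit) against mean CPM on a log axis, one point per abundant assembled locus. Red points are the 145 loci called higher, blue points the 139 called lower and grey points the 237 that did not pass; falls reach −4.12 (MSTRG.15030) and rises 2.24 (MSTRG.15382).

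The median of the loci lay below that of annotated genes in each of 4 abundance classes. Between 50 and 100 CPM, 265 loci had a median log2 fold change of −0.07 and 1088 genes one of 0.55. Between 100 and 200 CPM the medians were 0.21 (144 loci) and 0.60 (859 genes), and between 200 and 500 CPM 0.06 (85 loci) and 0.69 (652 genes). At 500 CPM or more the 27 loci had a median of 0.57 and the 273 genes one of 0.77. In that class 13 loci (48.1%) rose and 9 (33.3%) fell, against 65.6% and 10.6% of the genes. Over all tested features the shares were 24.7% and 26.2%. These are descriptions of the same 6 libraries, and the difference between the classes was not tested.

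MSTRG.14755 was the most abundant assembled locus and carried the largest rise. It had 3454, 4388 and 3321 CPM in the GV libraries and 9834, 7104 and 8559 CPM in the MII libraries. Every MII library was above every GV library, and the log2 fold change was 1.64 ± 0.19 (SE, edgeR adjusted p = 0.000154), a 3.12-fold rise on the TMM scale. It moved from 14th to 4th among all features by stage mean. It alone took 3.44 ± 0.302% of the counts of the abundant loci in GV and 9.33 ± 0.699% in MII (n = 3 each, exact permutation p = 0.1).

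Loci with neighbouring numbers were also among the 8 most abundant. MSTRG.14756 rose from 919 ± 166 to 1395 ± 367 CPM (SD, n = 3 each), with a log2 change of 1.07 ± 0.25 (SE; edgeR, adjusted p = 0.00490). MSTRG.14752 had 4283, 5107 and 4545 CPM in GV and 4590, 3763 and 6147 CPM in MII. Its stages overlapped, and its log2 fold change of 0.53 ± 0.23 did not pass (SE, edgeR adjusted p = 0.0741). It passed without MII library 2 (adjusted p = 0.0166) and in limma-voom (0.0429), with values from 0.0166 to 0.804 over 14 alternatives. These 3 loci together took 0.929 ± 0.112% of all counts in GV and 1.47 ± 0.249% in MII.

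The other loci of the 8 most abundant mostly rose. MSTRG.24280 had 3348, 3833 and 3171 CPM in GV and 5913, 4226 and 5340 CPM in MII, and rose by 1.03 ± 0.19 on the log2 scale (SE, edgeR adjusted p = 0.00123). MSTRG.5003 stood at 2004 ± 151 CPM in GV and 2211 ± 511 CPM in MII, with a log2 change of 0.61 ± 0.22 (SE; edgeR, adjusted p = 0.0378) that lost its call under 9 of 14 alternatives, among them each omission of a library other than MII library 2 (adjusted p 0.00555 to 0.516). MSTRG.4287 went from 1138 ± 263 to 1407 ± 172 CPM and rose by 0.75 ± 0.19 on the log2 scale (SE, edgeR adjusted p = 0.00748), a call lost with scaling by total count (adjusted p = 0.180, range 0.00169 to 0.180). MSTRG.15585 fell and is described with the falls, and MSTRG.13368 did not pass and is described with the loci of wide spread.

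Further rises in CPM were carried by loci that were less prominent in GV. MSTRG.8694 had 761, 476 and 237 CPM in GV and 1015, 1694 and 1317 CPM in MII. The GV libraries spread widely but all lay below the MII libraries, and the log2 fold change was 1.89 ± 0.37 (SE, edgeR adjusted p = 0.00234). MSTRG.10430 went from 593 ± 76.7 to 1081 ± 242 CPM, a log2 change of 1.33 ± 0.23 (SE; edgeR, adjusted p = 0.000886). MSTRG.23565 had 271, 302 and 280 CPM in GV and 576, 559 and 1061 CPM in MII, where library 3 stood above the others, and rose by 1.85 ± 0.29 on the log2 scale (SE, edgeR adjusted p = 0.000651).

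The loci with the largest falls in CPM were lower in every MII library than in any GV library, and those described here kept more than 50 CPM in each stage mean. MSTRG.15585 had 2393, 1987 and 2550 CPM in GV and 424, 464 and 266 CPM in MII. The fitted log2 change was −2.16 ± 0.19 (SE; edgeR, adjusted p = 5.9e-05). It ranked 30th among all features in GV and 461st in MII. MSTRG.10545 had 1915, 2138 and 961 CPM in GV and 197, 120 and 107 CPM in MII. The fitted log2 change was −3.13 ± 0.32 (SE; edgeR, adjusted p = 0.00011), and the locus went from rank 53 to rank 1428. MSTRG.18603 fell from 1418 ± 126 to 275 ± 42.4 CPM, MSTRG.20354 from 973 ± 155 to 214 ± 61.5 CPM and MSTRG.25031 from 908 ± 46.8 to 194 ± 25.1 CPM (SD, n = 3 each). Their log2 fold changes were −1.92, −1.76 and −1.78, with no overlap between stages.

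The size of the fall of MSTRG.16913 depended on 1 library. It had 590, 2744 and 847 CPM in GV and 190, 104 and 176 CPM in MII, and GV library 2 was more than 3 times either of the others. The log2 fold change was −2.69 ± 0.61 (SE, edgeR adjusted p = 0.00871). Without GV library 2 it was −1.74 and the call held (adjusted p = 0.00200). The call was lost in limma-voom (−2.43, adjusted p = 0.0890) and with a replicate block (−2.36, adjusted p = 0.0911), and every GV library lay above every MII library.

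**Figure D3:**
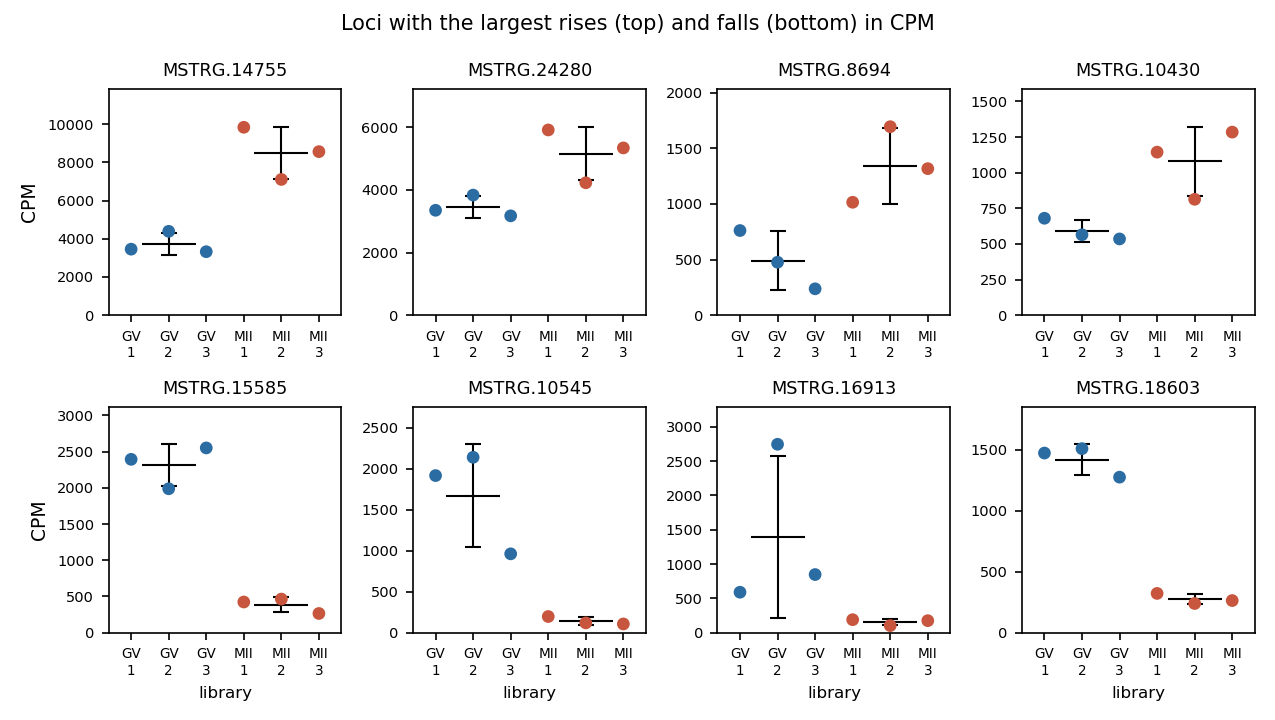
CPM in each library (points, GV blue, MII red) with stage means and SD (n = 3) for 4 loci among those with the largest rises (top row) and the 4 with the largest falls (bottom row); each panel has its own linear axis. The stages do not overlap in any panel, and GV library 2 stands apart for MSTRG.16913 (2744 CPM).

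In raw CPM the falls were spread over more loci than the rises. Changes in mean CPM add up over loci to the change of the share. By mean CPM, 349 loci were lower in MII and summed to −34710 CPM, and 172 were higher and summed to 17738 CPM, a net of −16972 CPM. It took 35 loci to reach 50% of the summed falls and 134 to reach 80%. For the rises 7 loci reached 50% and 41 reached 80%, and MSTRG.14755 alone gave 26.9%. The 6 loci with the largest falls gave 21.1% of the falls. The 139 loci called lower went from 34976 to 9681 CPM in sum and the 145 called higher from 31884 to 48969 CPM, while the 237 that did not pass went from 41022 to 32260 CPM. These 3 sums describe groups chosen on the same contrast. With TMM-scaled CPM, 247 loci were lower (−21581 CPM in sum) and 274 higher (35941 CPM), a net of 14360 CPM, so the direction of the whole group depends on the scaling. On that scale 20 loci reached 50% of the falls and 12 reached 50% of the rises.

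**Figure D4:**
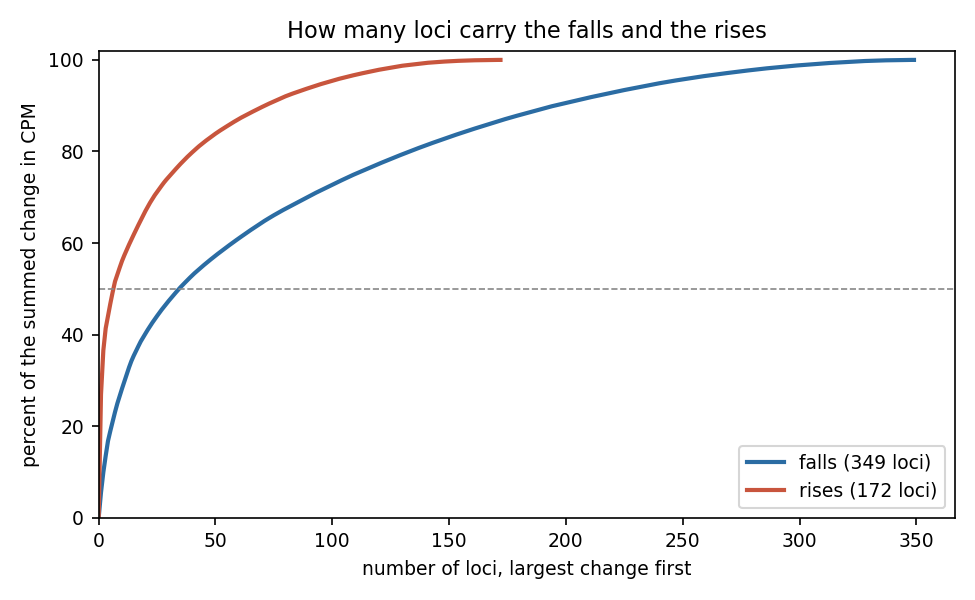
Cumulative percent of the summed change in raw mean CPM (MII minus GV) against the number of loci, ordered from the largest change, for 349 loci with a lower mean (blue) and 172 with a higher mean (red). The dashed line is 50%, which the rises cross at 7 loci and the falls at 35.

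The 5 largest fold falls were those of MSTRG.10545, given above, and 4 loci near the lower end of abundance, which met the threshold through their GV level. MSTRG.15030 had 144, 128 and 140 CPM in GV and 10.3, 6.49 and 1.41 CPM in MII, where the counts were 293, 203 and 45. It was nearly steady across GV libraries and low in all MII libraries, with a log2 change of −4.12 ± 0.53 (SE; edgeR, adjusted p = 0.000373), a 17.3-fold fall. MSTRG.11311 went from 99.3 ± 7.42 to 6.74 ± 1.92 CPM, a log2 change of −3.45 ± 0.22 (SE; edgeR, adjusted p = 1.7e-05). MSTRG.163 and MSTRG.23281 fell by 3.13 and 2.90 on the log2 scale (edgeR adjusted p = 2.9e-05 each).

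No locus rose more than 4.71-fold. The 5 largest fold rises included MSTRG.8694, given above. MSTRG.15382 had 18.7, 34.8 and 32.1 CPM in GV and 74.2, 146 and 78.9 CPM in MII. The fitted log2 change was 2.24 ± 0.29 (SE; edgeR, adjusted p = 0.000251). MSTRG.20964 went from 23.8 ± 10.2 to 79.8 ± 8.10 CPM, and MSTRG.21859 from 62.3 ± 35.1 to 183 ± 30.6 CPM, with log2 fold changes of 2.20 and 2.02. MSTRG.25107 had 45.4, 44.9 and 48.2 CPM in GV and 80.2, 97.5 and 202 CPM in MII. Its log2 fold change of 1.95 was 1.32 without MII library 3, where its call held (adjusted p = 0.00061).

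Some abundant loci had small fitted changes on the TMM scale. Among the 30 with the highest mean, MSTRG.1791 (678 ± 223 CPM in GV and 458 ± 95.0 CPM in MII), MSTRG.24886 (908 ± 66.0 and 556 ± 20.8 CPM) and MSTRG.16846 (530 ± 95.1 and 501 ± 48.6 CPM) had the smallest fitted changes. Their log2 fold changes were −0.13 ± 0.23, −0.26 ± 0.15 and 0.37 ± 0.19 (SE), and none passed (edgeR adjusted p = 0.651, 0.166 and 0.120). MSTRG.24886 passed with scaling by total count (log2 fold change −0.71, adjusted p = 0.00139) and with the filter of 5 CPM (−0.47, 0.014), and its stages did not overlap. In raw CPM its difference was −352 CPM and that of MSTRG.1791 was −220.2 CPM, so the small change holds for the TMM scale.

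Abundant loci varied more between pools than genes of like abundance. The median coefficient of variation (CV) of TMM-scaled CPM was 11.8% in GV and 22.5% in MII for the loci, against 7.82% and 18.3% for annotated genes of 50 CPM or more. The median mean level was 97.6 CPM for the loci and 130 CPM for the genes. Between 50 and 100 CPM the medians were 12.1% and 22.7% for loci and 8.63% and 18.9% for genes, and at 500 CPM or more 13.6% and 24.7% against 6.43% and 18.7%. Part of these spreads is counting error, which was not separated from the variation between pools.

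Single MII libraries stood apart for a small set of loci. MII library 2 was at most 0.5 times both other MII libraries for 22 loci (4.22%) and 6 annotated genes of 50 CPM or more (0.209%), and MII library 3 was at least 2 times both others for 18 loci (3.45%) and 9 such genes (0.313%), on TMM-scaled CPM. On raw CPM these counts were 12 (2.30%) and 4 (0.139%) for library 2, and 10 (1.92%) and 3 (0.104%) for library 3. No GV library stood apart in one direction for more than 2 loci.

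The widest spread in MII was that of MSTRG.10735. It had 304, 897 and 454 CPM in GV and 6.68, 49.2 and 728 CPM in MII. In raw CPM 2 MII pools were thus far below every GV pool, and MII library 3 lay within the GV range. On TMM-scaled CPM, MII library 3 had 947.3, above the highest GV value of 764.8. The counts behind the MII values were 191, 1541 and 23267. The log2 fold change of −0.49 ± 1.62 did not pass (SE, edgeR adjusted p = 0.821), and without MII library 3 it was −3.92 (adjusted p = 0.0146, range 0.0146 to 0.998 over 14 alternatives).

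Among the MII libraries, MSTRG.11919 and MSTRG.10374 were also highest in library 3. MSTRG.11919 had 151, 46.9 and 31.4 CPM in GV and 16.1, 4.92 and 97.7 CPM in MII. Its log2 fold change of −0.39 was −2.50 without MII library 3 (adjusted p = 0.0453, range 0.0453 to 0.989) and 0.58 without GV library 1. MSTRG.10374 had 120, 112 and 152 CPM in GV and 69.5, 58.3 and 259 CPM in MII. Its log2 fold change of 0.53 turned to −0.63 without MII library 3 (adjusted p = 0.022, range 0.022 to 0.993).

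In other loci the spread lay elsewhere. MSTRG.13368, the seventh most abundant locus, had 367, 1150.5 and 1783 CPM in GV and 1808, 476 and 1683 CPM in MII. In raw CPM its range was nearly the same at both stages, and its log2 fold change of 0.74 ± 0.68 did not pass (SE, edgeR adjusted p = 0.393). MSTRG.15636 had 146, 38.9 and 33.5 CPM in GV and 56.5, 58.3 and 55.5 CPM in MII, so GV library 1 lay above the MII libraries and the other two below them. Its log2 fold change of 0.08 was 1.10 without GV library 1 (adjusted p = 0.00438, range 0.00438 to 0.980).

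**Figure D5:**
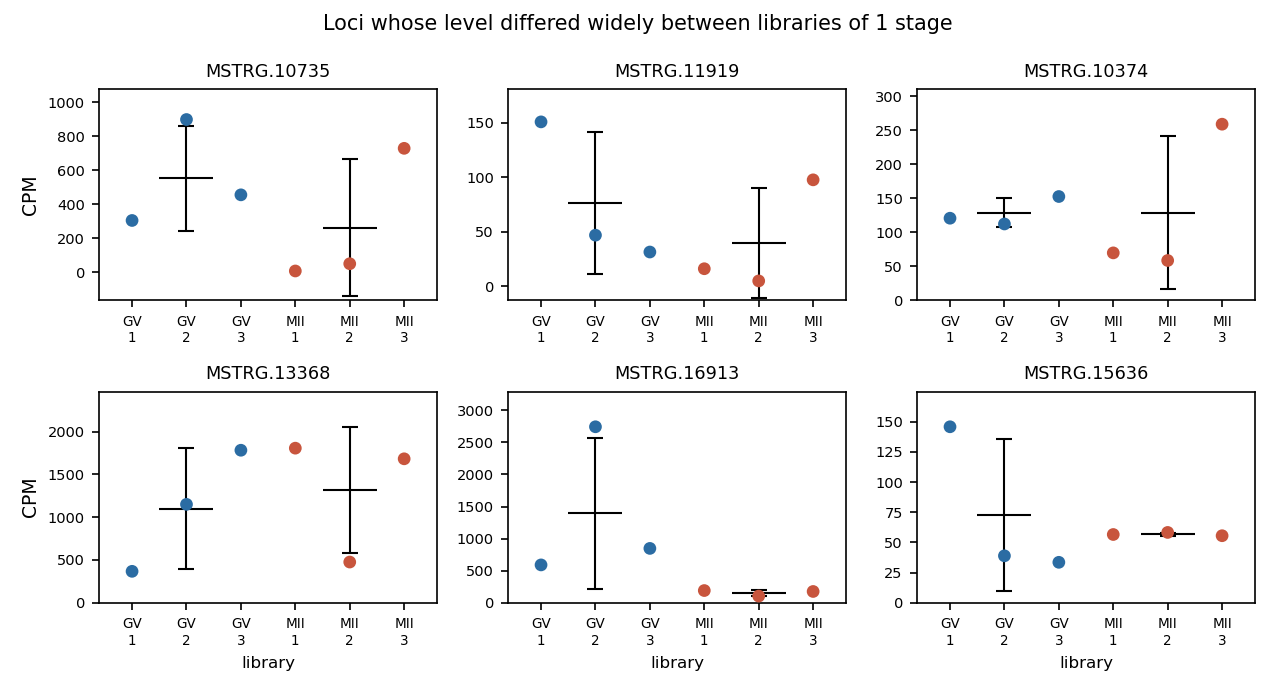
CPM in each library (points, GV blue, MII red) with stage means and SD (n = 3) for 5 loci with the widest spread in GV or MII and for MSTRG.13368; each panel has its own linear axis. MSTRG.10735 ranges from 6.68 to 728 CPM within MII, and MII library 3 is the highest MII library for MSTRG.10735, MSTRG.11919 and MSTRG.10374.

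A few abundant loci were almost equal in count to an annotated gene. Counts agreed within 1% in every library for 5 loci (0.960%), where 0 of 2872 annotated genes of 50 CPM or more agreed so closely with another annotated gene. At a tolerance of 10% it was 73 of 521 loci and 25.2% of the genes, so a match at that tolerance is common between any features. MSTRG.14046 had 17352, 22804, 24735, 10488, 5348 and 4743 counts in the 6 libraries, and ENSOARG00000026777 had the same counts except for 22805 in GV library 2. This locus fell by 1.36 on the log2 scale (edgeR adjusted p = 0.00335). The other close pairs were MSTRG.3479 with ENSOARG00000006465 (log2 fold change of the locus 1.07, a call lost without GV library 2 at 0.0695 and with total-count scaling at 0.131), MSTRG.23894 with ENSOARG00000002709 (1.43), MSTRG.6980 with ENSOARG00000016983 (1.80) and MSTRG.17270 with ENSOARG00000015758 (−0.08, not passing at an edgeR adjusted p of 0.689, but −0.51 and passing at 0.0238 with total-count scaling, with a range of 0.0238 to 0.904 over the alternatives).

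The most abundant locus also had a gene close to it in counts. The counts of MSTRG.14755 were 93195, 118958 and 93379 at GV and 281031, 222289 and 273567 at MII. Those of ENSOARG00000010696 were 90850, 115367 and 90646 at GV and 272074, 213456 and 264855 at MII, 3.97% lower at most. Whether the same reads were counted under both identifiers was not tested, since the table holds no positions. Without the 73 loci within a rounded 10% of a gene, 112 of 448 loci (25.0%) rose and 134 (29.9%) fell. The share of these 448 in the counts of all assembled loci differed by 0.623 points. The 73 stayed in that total, so this value cannot be set against the 7.02 points of all 521 loci as a measure of their part. Of those 73 loci, 33 (45.2%) rose and 5 (6.85%) fell, against 24.7% and 26.2% of all tested features and 57.6% and 15.6% of annotated genes of 50 CPM or more. They were chosen by counts close to a gene in every library, which ties their stage change to that of the gene. These counts are therefore a description.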

How the data were processed

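The deposited table held whole-number counts per feature, not normalized by the authors, for 6 libraries, and its columns were assigned by stage and replicate number. Per the labels' protocols, ribosomal RNA was removed and directional libraries were read as pairs of 100 bp. The build Oar_v3.1 and the tools StringTie 2.0, featureCounts 1.6.4, STAR 2.7.1a, Trimmomatic 0.38 and DESeq2 are named per the submitters' processing notes. Not given in the sources used here are the libraries that fed the assembly, the counting strand and how reads over several features were counted, so features may share reads.

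The loci, lists and tests were chosen with earlier results of these data known. Raw CPM used library totals, and 0 columns belonged to other samples. edgeR 4.0.16 in R 4.3.3 tested MII minus GV over the 19302 features passing filterByExpr, with TMM scaling, a robust quasi-likelihood F-test and Benjamini-Hochberg adjustment over all of them, and the script was tested on simulated data. The standard error is the log2 fold change over the square root of F. Shares were compared with an exact two-sided permutation test in SciPy 1.17.1. Named loci were those with the highest mean, the largest changes in CPM and in fold, the smallest changes among the 30 most abundant, the widest spread, the place next to the threshold, or counts within 1% of a gene. The oocyte and cumulus marker lists and RefSeq names matched 0 identifiers. Alternatives were 3 scalings, 2 filters, DESeq2 1.42.0, limma-voom (limma 3.58.1), a replicate block, omission of each library and other member rules. Ensembl identifiers stand without names because the files do not pair them.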

Additional observations from a re-analysis of the deposited data

How the results depend on the processing

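With scaling by total count alone, 66 loci rose, 227 fell and the median log2 fold change was −0.40. Under the other 13 settings of the test, the counts stayed within 1.5 times the reported ones, and no call was made in the opposite direction. Other thresholds changed the number of loci: 25 CPM gave 221 higher and 275 lower of 942, and 100 CPM gave 85 and 58 of 256. In the same fit 24.7% of all tested features rose and 26.2% fell. Requiring 50 CPM in each stage left 126 higher and 59 lower of 384, with a median of 0.24, since it removes loci low in MII, so the near balance of rises and falls depends on the member rule. The 7.02-point difference in the share of assembled-locus counts was 5.33 points at 25 CPM and 9.93 points with 50 CPM in each stage. Omission of the loci matching a gene gave 0.623, and that of the 10 most abundant loci −1.28. Chosen after the data were seen, the omission of MSTRG.14755 gave 2.46 and that of MSTRG.14752, MSTRG.14755 and MSTRG.14756 gave 0.876. All these omissions left the omitted loci in the total of assembled-locus counts. They therefore do not show how the difference stands among the remaining loci. The number of loci for 50% of the change was 20 for falls and 12 for rises with TMM-scaled CPM. MSTRG.10374 turned to −0.63 without MII replicate 3, with 0.91 as the highest value when another library was left out. Of 26 named loci with a call, 22 kept sign and call under all 14 settings, and of 11 without a call, 8 gained one in at least 1 setting. With a replicate block, 123 loci were higher and 134 lower. Libraries of equal number did not deviate together (correlations −0.0892, −0.230 and −0.0304), and the block moved no count by more than 1.5 times. Leaving out each library gave 105 to 181 loci higher, 116 to 149 lower, medians from −0.03 to 0.15 and share differences from −2.01 to −1.10 points of all counts and 6.04 to 7.71 points of assembled-locus counts. The cause of these changes was not tested. For the replicate block and the omitted libraries, the shares of all tested features called are not given here.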

Other observations

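The direction of the stage change was also compared between abundant loci with nearby numbers. StringTie numbers loci as it assembles them, and positions were not used here. Of 13 pairs of abundant loci with consecutive numbers, 7 had log2 fold changes of the same sign. Of 72 pairs of successive abundant loci at most 5 numbers apart, 42 had the same sign. Both loci were called in 24 of these pairs, with 6 pairs higher together, 9 lower together and the others in opposite directions. No such counts are given here for pairs with distant numbers, so these are a description.

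The following pairs were chosen after their values were seen. MSTRG.10541 fell by 1.66 on the log2 scale (edgeR adjusted p = 0.000238), 4 numbers from MSTRG.10545, which fell by 3.13. MSTRG.15586 and MSTRG.15588, the abundant loci next in number to MSTRG.15585, fell by 0.52 and 0.97 (edgeR adjusted p = 0.0194 and 0.00528). MSTRG.22654 and MSTRG.22655 rose by 1.08 and 1.12 (edgeR adjusted p = 0.000637 and 0.00381). In contrast, MSTRG.13828 fell by 1.45 and MSTRG.13830 rose by 1.45 (edgeR adjusted p = 0.000122 and 0.000128). MSTRG.9476 had 247, 219 and 218 CPM in GV and 292, 107 and 25.2 CPM in MII, so the MII pools spread over a wide range below and above a narrow GV range.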
